A study of Mus musculus with 6 samples.

Results

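Fatty acids and acetate enter metabolism only after they are joined to coenzyme A. Acyl-CoA synthetases spend ATP to make this thioester bond, and acyl-CoA thioesterases hydrolyse it and give the free acid back. In brown adipose tissue (BAT), the resulting acyl-CoA is burned in mitochondria for heat, stored as triglyceride or used to build longer lipids, and synthetases and thioesterases act in opposite directions on the acyl-CoA pool. The 10 genes described here are 4 long-chain acyl-CoA synthetases (Acsl1, Acsl3, Acsl4 and Acsl5), 2 acetyl-CoA synthetases (Acss1 and Acss2) and 4 thioesterases (Acot2, Acot11, Acot13 and Them4). They were chosen by name from the 23282 rows of the count tables. Each has a single row, and all 10 passed the filter on low counts, as did 12995 rows in all.

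Whole interscapular BAT depots of male C57BL/6N mice at 5 weeks of age were sequenced, with 3 wild-type and 3 Letmd1 KO libraries. The Letmd1 KO mice carry a knockout-first allele on both copies of Letmd1, in which a lacZ and neomycin resistance cassette sits in an intron, so that the gene is disrupted in every tissue and not in brown adipocytes alone. The labels number the libraries but do not state that each came from a separate mouse. They are called mice here, and p-values measure the spread between these libraries. The total was between 6669577 and 14574273 counts per library. Libraries came from the QuantSeq kit, which primes at the poly(A) tail and reads transcript 3′ ends. A count therefore does not scale with transcript length. Comparisons of levels between genes still rest on how the reads at each 3′ end were aligned and counted.

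Letmd1 itself had between 5266 and 6490 counts in wild-type libraries and 0, 0 and 1 in Letmd1 KO mice, as labelled. Cell type markers are called lower or higher at an adjusted p under 0.05, edgeR quasi-likelihood test. By this call 22.3% of all genes tested were lower and 23.7% higher. None of the 10 brown adipocyte markers was at 0, but 7 were lower and 0 higher in Letmd1 KO BAT (median log2 fold change -1.58). Among the 10, Ucp1 fell from a mean of 6328 to 382 CPM. The summed level of the 10 markers was 15500 to 17100 CPM (counts scaled to a library of 1000000) in wild-type and 2720 to 4570 CPM in Letmd1 KO BAT. Of 10 markers shared by all adipocytes, 6 were lower and 1 higher, and Pparg did not pass (log2 fold change -0.18). Their sum, of which Fabp4 made up the greatest part, was 42800 to 47400 CPM in wild-type and 21500 to 27400 CPM in Letmd1 KO BAT. Macrophage markers went the other way, with all 13 of 13 higher and sums of 184 to 258 CPM against 1510 to 3670 CPM. Fibroblast markers were higher for 8 of 8, with sums of 2160 to 2860 CPM against 5880 to 10200 CPM, while of 10 endothelial markers 4 were lower and 1 higher, with sums of 721 to 799 CPM against 457 to 594 CPM. Skeletal muscle markers summed to 88.8, 572 and 101 CPM in wild-type mice and to 529, 411 and 1490 CPM in Letmd1 KO mice. These sums varied within each genotype. Of the 15 muscle markers, 2 were higher and 0 lower, and 14 had a log2 fold change above 0 (median 2.11). Of 9 Schwann cell markers 8 were tested, with 6 higher and 0 lower. They summed to 235 to 283 CPM in wild-type and 329 to 515 CPM in Letmd1 KO BAT. In whole tissue, fewer cells of a type and less RNA per cell cannot be told apart.

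At an adjusted p under 0.05, Letmd1 KO BAT had less of 7 of the 10 genes and more of 2, and Them4 did not pass. Over all genes tested, 22.3% were lower and 23.7% were higher by the same call. With library size alone in place of TMM scaling, 10.5% were lower and 45.4% higher, and 5 of the 10 genes were lower and 3 higher. The wild-type and Letmd1 KO values did not overlap for 9 of the 10, against 57.3% of all genes tested. The median log2 fold change of the 10 was -1.17, where the median of all genes tested was 0.033. Both acetyl-CoA synthetases fell, whereas the other families held changes in both directions. Acsl4 rose where the other long-chain synthetases fell, and Acot2 rose where Acot11 fell.

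**Figure D1:**
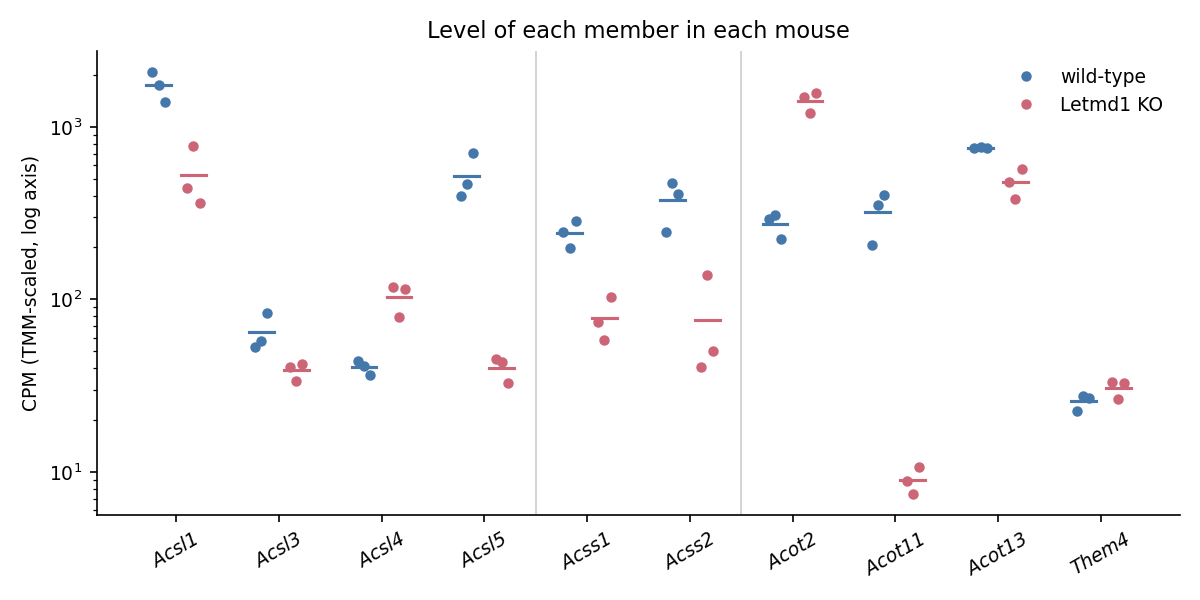
CPM of each gene (log axis) in each of the 3 wild-type (blue) and 3 Letmd1 KO (red) mice, with a bar at the group mean and lines that part long-chain synthetases, acetyl-CoA synthetases and thioesterases. Acot2 and Acsl4 lie higher in every Letmd1 KO mouse, Them4 overlaps, and the other 7 lie lower.

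Acsl1, the most abundant long-chain synthetase of adipocytes and the isoform best known for feeding fatty acids to oxidation in BAT, lies on chromosome 8 (46471037 to 46536051, plus strand). It had 2085, 1761 and 1394 CPM in wild-type mice and 442, 770 and 360.5 CPM in Letmd1 KO mice. Every Letmd1 KO value lay below every wild-type value, and Letmd1 KO replicate 2 was the highest of its group. The fall was 3.33-fold, with a log2 fold change of -1.74 (SE 0.28, adjusted p = 0.000867). Under quantile normalization with limma the log2 fold change was smaller, at -1.145 (adjusted p = 0.0113). Acsl1 remained the leading long-chain synthetase in both genotypes, with 73.2% ± 9.25 (SD, n = 3) of the counts of the 4 Acsl genes in wild-type and 72.4% ± 9.38 (SD, n = 3) in Letmd1 KO BAT.

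Acsl5, a synthetase of the endoplasmic reticulum and mitochondria, lies on chromosome 19 (55251938 to 55297720, plus strand). Its level was 399, 464 and 704 CPM in wild-type mice and 44.8, 43.4 and 32.5 CPM in Letmd1 KO mice. The lowest wild-type value was far above the highest Letmd1 KO value. Acsl5 fell 13.0-fold (log2 fold change -3.70, SE 0.24, adjusted p = 7.71e-06), and only 0.277% of the genes tested had a more negative log2 fold change. In the order of levels it was the third of the 10 genes in wild-type and the seventh in Letmd1 KO BAT, where its range overlapped that of Acsl3. Its share of the Acsl counts was 15.5% to 31.7% in wild-type mice and 4.68% to 6.96% in Letmd1 KO mice.

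Acsl3, which works at the endoplasmic reticulum and on growing lipid droplets, lies on chromosome 1 (78657825 to 78707743, plus strand). Wild-type mice had 52.8, 57.1 and 82.9 CPM and Letmd1 KO mice had 40.7, 33.8 and 42.3 CPM. The groups did not overlap, but the gap between the lowest wild-type and the highest Letmd1 KO mouse was small. The log2 fold change was -0.72 (SE 0.18, adjusted p = 0.0104), a call that was lost with scaling by library size alone (log2 fold change -0.30, adjusted p = 0.192) and with the level of muscle markers as a covariate (-0.61, adjusted p = 0.134).

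Acsl4, the isoform that prefers arachidonic acid and other polyunsaturated fatty acids, lies on the X chromosome (142317993 to 142390535, minus strand). It was the only long-chain synthetase that rose, from 44.1, 41.2 and 36.5 CPM in the wild-type mice to 117, 79.4 and 114 CPM in Letmd1 KO mice. All Letmd1 KO mice were above all wild-type mice. The rise was 2.55-fold (log2 fold change 1.35, SE 0.16, adjusted p = 0.000179), and the share of Acsl4 in the Acsl counts went from 1.71% ± 0.064 to 15.9% ± 6.44 (SD, n = 3 each). Acsl4 is also made by macrophages, whose 13 markers were all higher in the same mice, with none at 0. Letmd1 KO replicate 2, which had the highest sum of macrophage markers (3670 CPM), had the lowest Acsl4 level of the 3 Letmd1 KO mice (79.4 CPM). The part of macrophages in the rise of Acsl4 was not tested.

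The summed level of the 4 Acsl genes was 2374 ± 187 CPM in wild-type and 707 ± 196 CPM in Letmd1 KO BAT (SD, n = 3 each), which is 3.36-fold lower. Ratios of genes within a mouse do not depend on how libraries are scaled. The log2 ratio of Acsl5 to Acsl1 was -2.39, -1.92 and -0.99 in wild-type mice and -3.30, -4.15 and -3.47 in Letmd1 KO mice. Relative to Acsl1, Acsl5 was thus 3.66-fold lower in Letmd1 KO BAT. The log2 ratio of Acsl4 to Acsl1 was -5.56, -5.41 and -5.25 in wild-type mice and -1.91, -3.28 and -1.66 in Letmd1 KO mice, a difference of 3.13. Both ratios gave p = 0.1 in a two-sided exact permutation test, the lowest value possible with 3 mice a group, and p = 0.133 after adjustment over the 4 ratios tested.

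**Figure D2:**
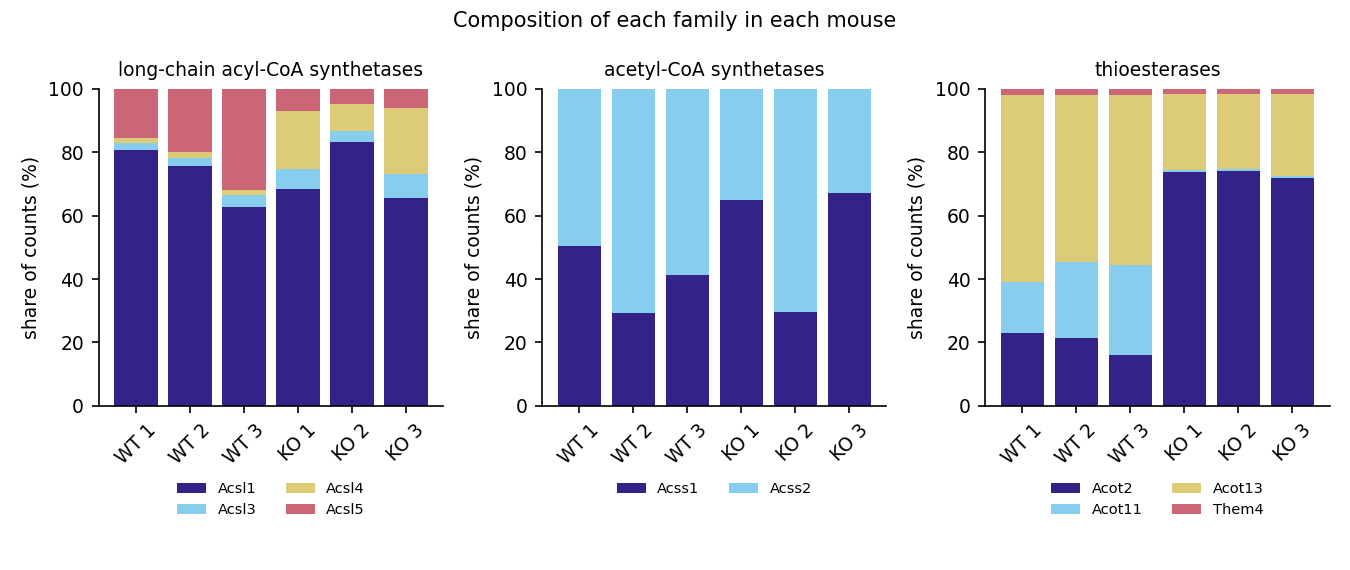
Share of counts (%) that each gene took within its family, in each of the 3 wild-type (WT) and 3 Letmd1 KO (KO) mice. Acot2 took between 71.9% and 74.2% of the thioesterase counts in Letmd1 KO mice and between 15.9% and 22.9% in the wild-type mice.

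Acetyl-CoA synthetases activate acetate. Acss1 does so in the mitochondrial matrix, and Acss2 does so in the cytosol and nucleus, where it supplies lipid synthesis and is a known target of sterol regulatory element binding proteins. Acss1 lies on chromosome 2 (150618105 to 150668500, minus strand) and had 247, 198 and 284 CPM in wild-type mice and 74.4, 58.0 and 103 CPM in Letmd1 KO mice. The groups were apart, and Acss1 fell 3.08-fold (log2 fold change -1.63, SE 0.21, adjusted p = 0.000277).

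Acss2, also on chromosome 2 (155517948 to 155585724, plus strand), had 245, 476 and 406 CPM in wild-type mice and 40.3, 139 and 50.2 CPM in Letmd1 KO mice. The groups did not overlap, although the Letmd1 KO mice differed among themselves more than for any other of the 10 genes, with a coefficient of variation of 70.8%. Acss2 fell 4.95-fold (log2 fold change -2.31, SE 0.44, adjusted p = 0.0024). Without Letmd1 KO replicate 2 the fall was 8.26-fold (log2 fold change -3.05).

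The balance of the acetyl-CoA synthetases did not part the genotypes. The log2 ratio of Acss2 to Acss1 was -0.016, 1.27 and 0.51 in wild-type mice and -0.88, 1.26 and -1.04 in Letmd1 KO mice. The groups overlapped, and the difference of -0.81 was within the spread of the mice (two-sided exact permutation test, p = 0.3). Letmd1 KO replicate 2 had a ratio like that of wild-type replicate 2. The overlap came from that Letmd1 KO mouse alone, as the others lay below every wild-type mouse. Without Letmd1 KO replicate 2 the difference was -1.55. Over all 6 ways of leaving out a mouse, the difference was between -1.55 and -0.40.

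Acot2, the thioesterase of the mitochondrial matrix for long-chain acyl-CoA, lies on chromosome 12 (83987861 to 83993873, plus strand). It had 293, 309.8 and 223 CPM in wild-type mice and 1485, 1198 and 1576 CPM in Letmd1 KO mice. The lowest Letmd1 KO mouse was above the highest wild-type mouse by a wide margin, and the spread within Letmd1 KO mice was small (coefficient of variation 13.9%). The rise was 5.16-fold (log2 fold change 2.37, SE 0.17, adjusted p = 1.26e-05), and 95.2% of the genes tested had a lower log2 fold change. In the Letmd1 KO mice Acot2 was the most abundant of the 10 genes, and by mean level it moved from place 666 to place 48 among all rows of the tables. Its range did not overlap that of the next of the 10, Acsl1.

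Acot2 has close relatives next to it on chromosome 12. Its neighbour Acot1 (84009490 to 84018371), a cytosolic thioesterase, had 222, 93 and 53 counts in wild-type libraries and 12, 8 and 20 in Letmd1 KO mice, and so changed in the opposite direction (log2 fold change -3.51, SE 0.50, adjusted p = 0.000446). Without wild-type replicate 1 the value was -2.82. Reads with several alignments were counted by the authors, so the sharing of reads between these genes was looked at in the annotation. Of the 426 possible reads of 75 bases in the last 500 bases of coding Acot2 transcripts, 0 occurred in a transcript of another gene, whereas 40 of the 852 of Acot1 occurred in Acot2. Here and for the genes below, only exact matches were sought, so reads that align with mismatches are not covered.

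Acot11, which is also called brown fat inducible thioesterase because cold raises it in BAT, lies on chromosome 4 (106744555 to 106804998, minus strand). It changed most of the 10 genes. Wild-type mice had 207, 351 and 402 CPM, and Letmd1 KO mice had 8.79, 7.41 and 10.7 CPM, from 80, 56 and 182 counts. Every Letmd1 KO mouse was far below every wild-type mouse while staying above the floor of 3 counts. The fall was 35.1-fold (log2 fold change -5.13, SE 0.28, adjusted p = 3.31e-06), and only 0.0846% of the genes tested had a more negative log2 fold change. Acot11 was the fifth most abundant of the 10 genes in wild-type BAT and the least abundant of the 10 genes in Letmd1 KO BAT.

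The end of Acot11 overlaps Fam151a on the opposite strand, and 9.34% of the possible 75-base reads in the last 500 bases of its coding transcripts also occur in Fam151a. Fam151a had 251, 402 and 564 counts in wild-type libraries and 8, 10 and 23 in Letmd1 KO mice, at most 18.3% of the counts of Acot11. Whether the counting used strand is not given in the sources used here, so to which of these genes the shared reads belong cannot be told apart. The ends of Acsl5 and Acss2 reach the opposite-strand genes Zdhhc6 and Gss. Zdhhc6 had 182, 115 and 332 counts in Letmd1 KO mice, where Acsl5 had 408, 328 and 553. Gss had 291, 161 and 467 counts in those mice, where Acss2 had 367, 1047 and 854. In Letmd1 KO mice these neighbours were thus not small beside the reduced genes, apart from Gss in replicate 2. In wild-type libraries Zdhhc6 had 184, 197 and 121 counts, where Acsl5 had 3699, 4376 and 5396. Gss had 166, 106 and 101 there, where Acss2 had 2269, 4486 and 3111. None of the possible reads at the end of Acsl5 occurred in another gene, and 2.35% of those of Acss2 did, all in Acss2os, which had 0 counts in every mouse.

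Acot13, a small thioesterase of mitochondria and cytosol that is also called Them2, lies on chromosome 13 (24817948 to 24831540, minus strand). Its levels of 757, 769 and 751 CPM were the most even of the 10 genes in the wild-type mice, and the Letmd1 KO mice had 482, 383 and 573 CPM. The groups were apart with a log2 fold change of -0.66 (SE 0.15, adjusted p = 0.00594). This call did not hold with library size alone (-0.24, adjusted p = 0.216) or under quantile normalization with limma (-0.20, adjusted p = 0.329), so the fall of Acot13 rests on the scaling.

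Them4, a mitochondrial thioesterase on chromosome 3 (94310089 to 94332540, plus strand), was the least abundant of the 10 genes in wild-type BAT. It had 22.5, 27.5 and 26.7 CPM in wild-type mice and 33.3, 26.6 and 32.5 CPM in Letmd1 KO mice, and the groups overlapped. The log2 fold change was 0.27 (SE 0.15, adjusted p = 0.162). With library size alone, which raised the median of all genes to 0.45, it was 0.69 and passed the threshold (adjusted p = 0.00459).

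**Figure D3:**
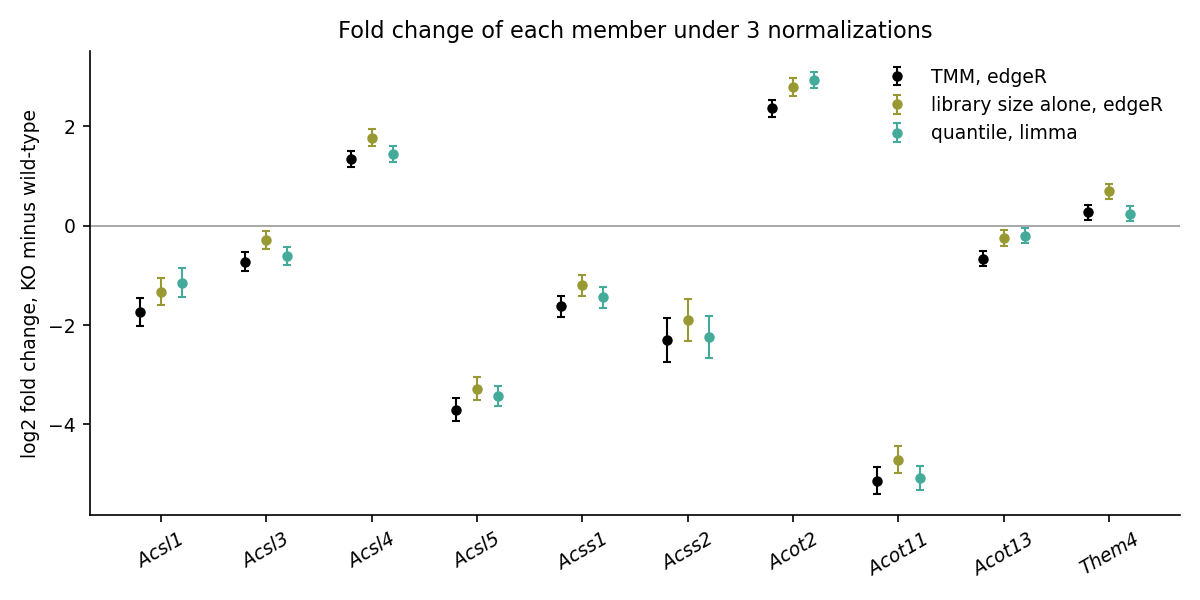
Log2 fold change (Letmd1 KO minus wild-type) of each gene with its standard error, under TMM scaling with edgeR (black), library size alone with edgeR (olive) and quantile normalization with limma (teal). The sign is the same under all 3 for each of the 10 genes, and the values of Acsl3, Acot13 and Them4 lie nearest to 0.

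The summed level of the 4 thioesterases was 1380 ± 90.9 CPM in wild-type and 1939 ± 295 CPM in Letmd1 KO BAT (SD, n = 3 each). Acot2 alone made this sum higher, as the other thioesterases summed to 1105 ± 103 CPM in wild-type and 519 ± 99.9 CPM in Letmd1 KO BAT (SD, n = 3 each). The make-up of the family differed between the genotypes. Acot2 took 20.01% ± 3.67 of the thioesterase counts in wild-type and 73.3% ± 1.26 in Letmd1 KO BAT, and Acot11 took 23.0% ± 6.33 and 0.462% ± 0.026 (SD, n = 3 each). Acot13 led the family in wild-type mice with 55.2% ± 3.5 and came second in Letmd1 KO mice with 24.6% ± 1.33 (SD, n = 3 each). Counting error was small beside these differences, as the widest 95% Wilson interval of a share in a single mouse, over the 3 families, spanned 5.78 percentage points and was that of the acetyl-CoA synthetases in Letmd1 KO replicate 1.

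The ratio of the summed thioesterases to the summed Acsl genes changed side. Its log2 value was -1.01, -0.67 and -0.66 in wild-type mice and 1.64, 0.80 and 2.0 in Letmd1 KO mice. Synthetase counts exceeded thioesterase counts in every wild-type mouse, and thioesterase counts exceeded synthetase counts in every Letmd1 KO mouse. The ratio was 4.79-fold higher in Letmd1 KO BAT. A two-sided exact permutation test gave p = 0.1, the lowest value possible, and p = 0.133 after adjustment over the 4 ratios tested. The result rested on Acot2. Without it the log2 ratio was -1.39, -1.02 and -0.91 in wild-type mice and -0.30, -1.15 and 0.17 in Letmd1 KO mice, so that the genotypes overlapped. The ratio counts transcripts and not enzyme activity.

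**Figure D4:**
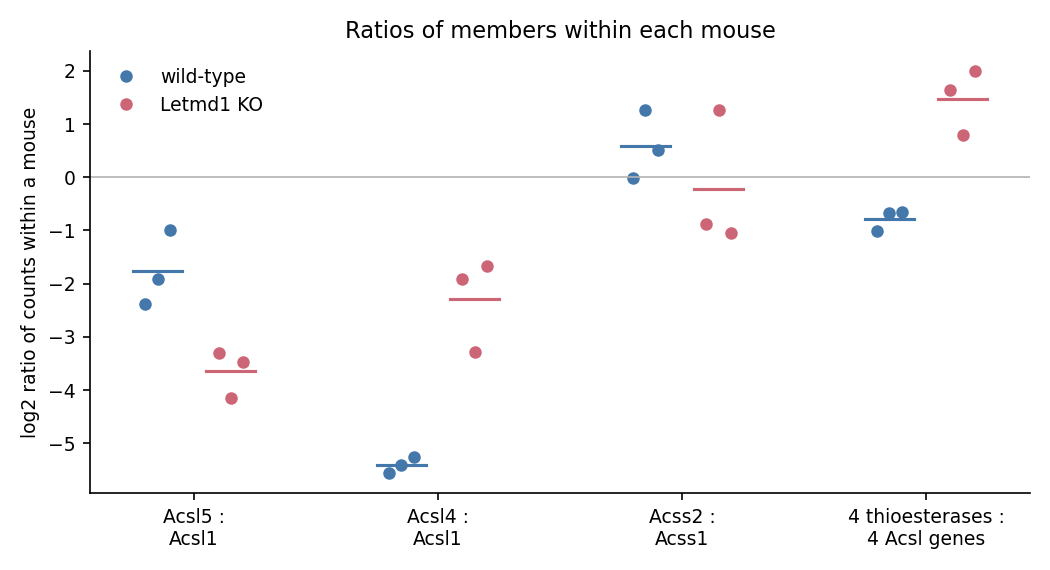
Log2 ratio of counts of 2 genes or gene sums within each mouse, for the 3 wild-type (blue) and 3 Letmd1 KO (red) mice, with a bar at the group mean and a line at equal counts. The genotypes are apart for 3 of the 4 ratios and overlap for Acss2 to Acss1.

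The order of the levels showed which differences between genes exceeded the spread of the mice. In wild-type BAT, Acsl1 was above Acot13 and Acot13 above Acsl5 with no overlap, while Acsl5, Acss2, Acot11, Acot2 and Acss1 formed a run of overlapping neighbours. Acsl3, Acsl4 and Them4 followed, each with a range below the one before. In Letmd1 KO BAT, Acot2 stood alone at the top, Acsl1 and Acot13 overlapped, and Acsl4, Acss1, Acss2, Acsl5 and Acsl3 formed a run of overlapping neighbours. Them4 and Acot11 followed, although the range of Them4 overlapped that of Acsl5, and both had 32.5 CPM in Letmd1 KO replicate 3.

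Sequences upstream of the start sites are shown for the gene that rose most (Acot2), the genes that fell most (Acot11 and Acsl5) and the only gene in which a searched motif was found (Acsl1). They come from RefSeq on GRCm38.p6, which held a start site for 9 of the 10 genes in 11 windows. Each is the 250 bases before a start site, written 5′ to 3′ on the strand of the gene, in lower case with motif matches in capitals.

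Acot2, chr12:83987611-83987860, plus strand:
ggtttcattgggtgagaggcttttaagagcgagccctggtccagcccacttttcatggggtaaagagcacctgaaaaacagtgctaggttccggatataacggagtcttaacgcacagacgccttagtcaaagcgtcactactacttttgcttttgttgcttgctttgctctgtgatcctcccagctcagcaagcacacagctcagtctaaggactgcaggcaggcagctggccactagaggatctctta

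Acot11, chr4:106799832-106800081, minus strand:
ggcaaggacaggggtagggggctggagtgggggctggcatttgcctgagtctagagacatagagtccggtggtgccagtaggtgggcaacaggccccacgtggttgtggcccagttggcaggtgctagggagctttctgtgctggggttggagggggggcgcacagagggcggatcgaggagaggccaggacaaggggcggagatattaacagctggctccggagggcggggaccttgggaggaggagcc

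Acsl5, chr19:55253119-55253368, plus strand:
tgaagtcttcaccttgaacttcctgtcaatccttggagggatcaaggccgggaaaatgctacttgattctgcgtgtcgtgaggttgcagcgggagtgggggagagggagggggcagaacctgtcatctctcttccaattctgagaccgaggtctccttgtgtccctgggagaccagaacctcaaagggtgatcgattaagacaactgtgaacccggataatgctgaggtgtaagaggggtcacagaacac

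Acsl1, chr8:46490716-46490965, plus strand, the more downstream of its windows:
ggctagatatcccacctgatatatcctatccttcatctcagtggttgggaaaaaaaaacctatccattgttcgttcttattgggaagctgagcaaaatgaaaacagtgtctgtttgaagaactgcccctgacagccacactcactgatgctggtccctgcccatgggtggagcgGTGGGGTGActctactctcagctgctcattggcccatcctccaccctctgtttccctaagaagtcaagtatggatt

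The windows from 250 bases before to 50 after the start were searched on both strands for AGGTCA, the core site of many nuclear receptors, TCAAGGTCA, the element of oestrogen-related receptors, which contains that core site, TGATGNAA, an element of C/EBP and ATF factors, and TCACNCCAC, a sterol regulatory element. Among all 32851 windows of this length, 16.3% held the core site, 0.423% the oestrogen-related receptor element, 3.97% the C/EBP and ATF element and 1.24% the sterol element. In the 11 windows, the sole match was 1 sterol element on the minus strand of Acsl1, at position -76 from the start. Acot13 had no window. For the remaining genes, only the absence of these letters from these windows is known. The 3′ counts do not tell which start site of Acsl1 or Acot11 was used. Base composition differed among the genes, from 48.4% G and C with 2 CpG in the downstream window of Acsl1, and 50.4% with 6 CpG in Acot2, to 75.6% with 28 CpG in Acsl3, where the median of all windows was 52.4% with 6 CpG.

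The other enzymes of both families gave further context, on lists that were written down by function. By the call used for these lists, 22.3% of all genes tested were lower and 23.7% higher. Of 18 other acyl-CoA synthetases, 9 were tested, and 7 were lower and 1 higher in Letmd1 KO BAT. Among the 7, named here after their values were seen, Acsf2 lost its call when any mouse other than Letmd1 KO replicate 2 was left out (adjusted p between 0.052 and 0.131), and Slc27a4 lost it without wild-type replicate 2 (0.0798) or Letmd1 KO replicate 3 (0.0756). Slc27a2, a fatty acid transport protein that activates very long-chain fatty acids, fell by 6.15 on the log2 scale (adjusted p = 1.54e-05), from 109, 76.8 and 37.9 CPM in the wild-type mice to 1.43, 1.19 and 0.71 CPM in Letmd1 KO mice. Aacs, which activates acetoacetate in the cytosol, fell with a log2 fold change of -2.66 (adjusted p = 0.000149). The medium-chain synthetase Acsm3 (-2.66, adjusted p = 1.75e-05) and Acss3, a synthetase of short-chain acids (-2.32, adjusted p = 0.00231), fell as well. The gene that rose was Slc27a3, named after its value was seen, with at most 38 counts in a mouse (log2 fold change 2.22). Slc27a1, the transport protein of muscle and fat, did not pass (log2 fold change -0.43, adjusted p = 0.424), but was lower without Letmd1 KO replicate 2 (-1.22, adjusted p = 0.000414).

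Of 12 other thioesterases, 7 were tested, with 3 lower and 1 higher. Beside Acot1, the peroxisomal Acot4 fell by 2.21 (adjusted p = 0.0133) from 2.22 to 6.68 CPM in wild-type to 0.35 to 1.32 CPM in Letmd1 KO BAT, and Acot7, known from brain and cytosol, fell by 0.44 (adjusted p = 0.0295). Acot9, a mitochondrial thioesterase, was the gene that rose, by 0.43 (adjusted p = 0.036). The value for Acot8 of peroxisomes was -0.38 (adjusted p = 0.105). The calls of Acot4, Acot7 and Acot9 were not stable to leaving out a mouse. Acot4 did not pass without wild-type replicate 1 (adjusted p = 0.0554). Acot7 did not pass when replicate 1 or 3 of either genotype was left out (adjusted p between 0.0663 and 0.111), nor did Acot9 when replicate 2 or 3 of either genotype was (between 0.0932 and 0.103), whereas Acot8 was lower without wild-type replicate 3 (-0.55, adjusted p = 0.0149). None of these reached the level of Acot2, and the summed level of the list was 96.1 to 133 CPM in wild-type and 82.2 to 92.6 CPM in Letmd1 KO BAT.

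Proteins that bind acyl-CoA were lower for 5 of 6 tested. Of these Acbd6, named after its values were seen, lost its call when any mouse other than wild-type replicate 1 was left out (adjusted p between 0.0625 and 0.15). Dbi, the acyl-CoA binding protein of the cytosol, had 9359, 9372 and 9462 CPM in wild-type mice and 1711, 2562 and 1608 CPM in Letmd1 KO mice (log2 fold change -2.26, adjusted p = 3.89e-05). Scp2, Acbd4 and the peroxisomal Acbd5 fell, with log2 fold changes of -1.45, -1.34 and -0.99, and Acbd3 of the Golgi did not pass (0.084, adjusted p = 0.544). Genes that make, carry or break down coenzyme A were lower for 10 of 13 and higher for 1, Dcakd, named after its value was seen (log2 fold change 0.73, adjusted p = 0.0109). Pank1, a pantothenate kinase that catalyses the limiting step of coenzyme A synthesis, fell most, from 988, 799 and 732 CPM to 134, 81.1 and 164 CPM (log2 fold change -2.73, adjusted p = 3.57e-05). Nudt7, which cleaves coenzyme A in peroxisomes (-1.52), the kinase Pank3 (-1.19) and the mitochondrial carrier Slc25a16 (-1.17) fell too, while Ppcdc had -0.24 (adjusted p = 0.274). Pank2, named after its values were seen, was among the 10 lower and lost its call without Letmd1 KO replicate 3 (adjusted p = 0.0562).

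Most genes that use acyl-CoA were lower. In the carnitine shuttle and mitochondrial beta-oxidation, 15 of 16 were lower, with a median log2 fold change of -1.43. The carnitine carrier Slc25a20 (-1.84) and the dehydrogenases Acadvl (-1.81) and Hadh (-1.76) fell. Cpt1a, the carnitine palmitoyltransferase of liver and many other tissues, was the exception, with 8.52, 8.38 and 6.26 CPM in wild-type mice and 34.2, 45.9 and 34.1 CPM in Letmd1 KO mice (log2 fold change 2.29, adjusted p = 2.38e-05). Of 16 listed genes of glycerolipid acylation, 14 were found under their current symbols and 12 were tested, of which 8 were lower and 2 higher. Agpat5, among the 8 and named after its values were seen, lost its call without wild-type replicate 2, Letmd1 KO replicate 1 or Letmd1 KO replicate 3 (adjusted p between 0.0683 and 0.0974). There Dgat2, which makes triglyceride, had a log2 fold change of -2.44, Gpam -2.33 and Agpat2 -2.02, while Agpat4 rose by 1.40 and Lpin2 had 0.11 (adjusted p = 0.707). The other listed genes, the glycerol-3-phosphate acyltransferases Gpat4 and Gpat3, stand in the tables under the older symbols Agpat6 and Agpat9 that RefSeq gives as synonyms, and were added after their values were seen. Agpat6 fell from a mean of 903 to 166 CPM (log2 fold change -2.44, adjusted p = 9.0e-05), and Agpat9 rose from 10.9 to 64.5 CPM (2.55, adjusted p = 0.0014).

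Acss2 shares its product with the route from citrate, in which 7 of 8 genes were lower and 0 higher, with a median log2 fold change of -2.73. Fasn, the fatty acid synthase, had 17690, 19450 and 21150 CPM in wild-type mice and 818, 3354 and 691 CPM in Letmd1 KO mice (log2 fold change -3.58, SE 0.57, adjusted p = 0.000898). Acaca (-3.11), Acly (-2.97) and Acacb (-2.87) fell as well, and Me1, which supplies NADPH, did not pass (-0.88, adjusted p = 0.0700). Without Letmd1 KO replicate 2 the log2 fold changes were larger in size, at -4.69 for Fasn, -3.92 for Acaca and -3.99 for Acly, and Me1 was lower (-1.55, adjusted p = 2.22e-05). Letmd1 KO replicate 2 was the highest of the Letmd1 KO mice for 8 of these 8 genes, as it was for Acss2. It was also highest for 9 of 12 genes of glycerolipid acylation, 6 of 9 other acyl-CoA synthetases and 4 of 6 acyl-CoA binding proteins, but for 2 of 16 genes of the carnitine shuttle and beta-oxidation, where Letmd1 KO replicate 3 was highest for 12. For genes of coenzyme A it was highest in 4 of 13 and Letmd1 KO replicate 3 in 7, and for the 10 synthetases and thioesterases described here it was highest in 2 and Letmd1 KO replicate 3 in 5. It was highest for 4 of 7 other thioesterases. The same mouse had the lowest sum of brown adipocyte markers (2720 CPM) and the highest sum of markers shared by all adipocytes (27400 CPM) in its group. It also had the highest sums of macrophage markers, 3670 CPM against 1750 and 1510 CPM, and of fibroblast markers, 10200 CPM against 6560 and 5880 CPM. The part of these differences between the mice in the values of Acss2 was not tested.

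**Figure D5:**
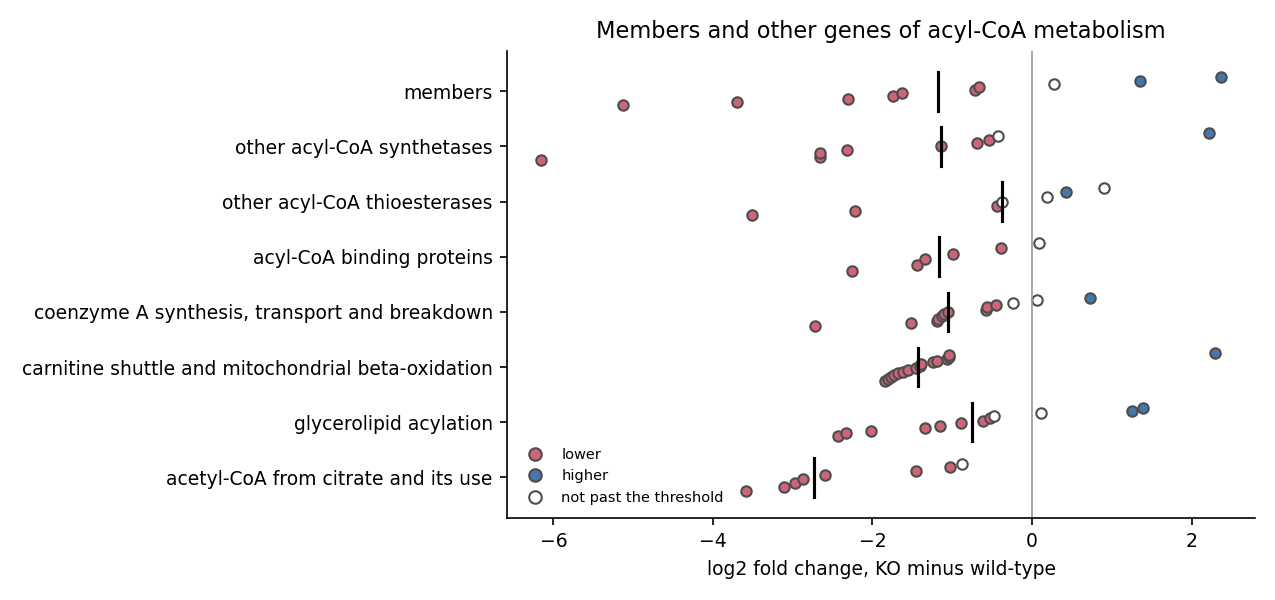
Log2 fold change (Letmd1 KO minus wild-type) of the 10 genes and of the tested genes of 7 lists of acyl-CoA metabolism, 1 point a gene, filled red where lower, blue where higher and white where the threshold was not passed, with a bar at the median. Medians lie between -2.73 (acetyl-CoA from citrate and its use) and -0.38 (other acyl-CoA thioesterases, 0.040 with library size alone).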

How the data were processed

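RNA of BAT was sequenced as single-end reads of 75 bases. Per the submitters' processing notes and the methods, the authors aligned them with Bowtie2 to mm10 and used bedtools for read counts from unique and multiple alignments. Versions, annotation and use of strand are not given in the sources used here. The authors deposited whole-number counts for each library, without the quantile normalization named in the methods. Here the counts were tested in R 4.3.3 with edgeR 4.0.16 (quasi-likelihood test, TMM scaling, the default filter of at least 10 counts, total at least 15), adjusted by Benjamini-Hochberg over all genes tested, at a threshold of 0.05. TMM factors were 0.852 to 0.886 in wild-type and 1.14 to 1.17 in Letmd1 KO libraries, so scaling can shift every fold change alike. CPM are counts scaled to a TMM-adjusted library of 1000000, and standard errors (SE) were derived from the fold change and its F statistic. A floor of 3 counts, or 0.176 to 0.397 CPM, covers counting error only, as do intervals of shares. No library was a copy of another, as chi-square values of pairs within a genotype were 11.5 to 34.0 times their degrees of freedom.

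Within-mouse ratios used counts plus 0.5 and two-sided exact permutation tests. Alternatives were library size alone, quantile normalization with limma 3.58.1, other filters and thresholds, DESeq2 1.42.0, the replicate number as a block, muscle markers as a covariate, other pseudocounts and leaving out mice. The steps were tested on simulated counts. From each list outside the 10 genes, up to 4 with the largest absolute change among those past the threshold, without overlap of the genotypes and with a mean of at least 20 counts are named, with the most abundant gene that did not pass; exceptions are marked. The genes, lists and tests were chosen with earlier results of these data known. Positions are from GENCODE vM21 on GRCm38, the build called mm10. A planned comparison of protein sequences was not made here.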

Additional observations from a re-analysis of the deposited data

How the results depend on the processing

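The 7 lower and 2 higher genes kept their direction in all alternatives run, and so did Them4. Of the refits of single genes, 135 kept their side of the threshold, 4 calls were lost (Acsl3 with library size alone, -0.30, and with muscle markers as a covariate, -0.61; Acot13 by library size, -0.24, and by quantile normalization, -0.20) and 1 was gained (Them4 with library size alone, 0.69). Quantile normalization moved Acsl1 to -1.145, by just over 1.5 times in fold, with its call kept. Of the 10 genes, 6 were lower and 2 higher at an adjusted p under 0.01, and 5 lower and 2 higher at 2-fold. Leaving Acot2 out of the thioesterases, an alternative chosen after seeing the data as were the refits of the other pathway genes without each mouse, reduced the difference in their log2 ratio to the Acsl genes from 2.26 to 0.68. Removing any mouse lost none of the 9 calls, and Acss2 alone moved by over 1.5 times in fold. Leaving out wild-type replicate 2 and Letmd1 KO replicate 3 together, the mice with the most skeletal muscle marker counts in each genotype and an alternative chosen after seeing the data, left 7 lower and 2 higher, with 3889 genes past the threshold (1912 lower, 1977 higher) from fewer mice.

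Over all genes, 5978 passed (2896 lower, 3082 higher), and between 4842 and 5868 without any 1 mouse (2348 to 2869 lower, 2494 to 2999 higher). Library size alone gave 1368 lower and 5899 higher and raised the median of all genes from 0.033 to 0.45; the median of other acyl-CoA thioesterases then turned to 0.0397. Muscle markers as a covariate gave 3584 (1768 lower, 1816 higher), an adjusted p under 0.01 gave 3939 (1985 higher), and a change of at least 2-fold gave 3048 (1149 lower, 1899 higher); the stricter thresholds lower the count by construction, and the cause of the fall with the covariate was not tested. With the replicate number as a block, 5599 genes passed, of the 10 genes 7 lower and 2 higher. Deviations of same-numbered libraries from their genotype means had correlations of 0.069, -0.11 and -0.087. Those of differently numbered libraries were between -0.093 and 0.191. Deviations centred on 3 libraries a genotype cannot show whether same-numbered libraries shared a litter or batch, which the labels do not state. Low counts limit Acot11 in Letmd1 KO mice most, at 56 to 182 counts.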
